A study of Mus musculus with 58 samples.

Results

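Hif1a and Epas1 encode the oxygen-regulated alpha subunits HIF-1α and HIF-2α of the hypoxia-inducible factors. They were examined with 5 genes of the same pathway in mouse CD4+ T cells that lacked, overexpressed or normally carried the microRNA cluster miR-17~92. The 7 genes are Hif1a, Epas1, Arnt, Egln1, Egln3, Vegfa and Bnip3, of 24028 gene entries measured in each library. In GRCm38 coordinates Hif1a lies at chr12:73901324-73947554 and Epas1 at chr17:86753864-86833410, with Arnt on chromosome 3, Egln1 on 8, Egln3 on 12, Vegfa on 17 and Bnip3 on 7. The genes were listed by name, and all 7 were found and passed the filter on low counts. The set was selected on the exonic level of Epas1, which was high in stimulated transgenic cells, so the difference between transgenic and wild-type stimulated cells is described below without a test. The difference between stimulated and naive transgenic cells is treated in the same way.

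HIF alpha subunits are made continuously and, while oxygen is present, are hydroxylated by prolyl hydroxylases such as those encoded by Egln1 (PHD2) and Egln3 (PHD3), bound by the VHL ubiquitin ligase and degraded. When hydroxylation fails, the alpha subunit pairs with the constitutive partner ARNT and binds hypoxia response elements in genes such as Vegfa (an angiogenic growth factor), Bnip3 (a mitochondrial protein that promotes mitophagy), Egln3 itself and most genes of glycolysis. In T cells HIF-1α is also induced by antigen receptor signalling without hypoxia and is known for its part in the glycolytic programme of activated cells. This regulation acts largely on protein stability, and protein was not measured here.

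Transgenic cells (TG) came from mice with a CD4cre allele and a Rosa26 miR-17~92 transgene behind a loxP-flanked stop cassette, driven by the CAG promoter. Knockout cells (KO) came from mice with CD4cre and a floxed miR-17~92 cluster, and wild-type cells (WT) served as controls. Both altered genotypes carry the Cre driver and the WT label names none, so the effect of the cluster and that of Cre cannot be told apart. CD4cre acts during T cell development in the thymus, so the cells had carried the altered cluster since that stage. Naive CD4+ T cells were taken from lymph nodes and spleens, pooled from 10 male and female mice, and were either left naive or cultured for 24 or 48 h with 50 U/ml IL-2 on plates coated with antibodies to CD28 (0.2 µg/ml) and CD3. The CD3 antibody was coated at 0.25 µg/ml for the very weak and at 0.5 µg/ml for the weak stimulus. There were 58 libraries of polyA RNA in 15 groups, with 4 replicates in each group except naive KO and naive WT, which had 3. Nothing in the labels says that replicates are separate animals, so p-values measure the spread between these samples. As the samples are bulk RNA, fewer cells expressing a gene and less RNA per cell cannot be told apart.

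The cluster's mature microRNAs are shown because the genotypes differ in them, with the seed (bases 2 to 8) in capitals. The sequences are RefSeq entries on chromosome 14 of GRCm38.p6 and fall into 4 seed families.
miR-17-5p: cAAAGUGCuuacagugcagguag
miR-20a-5p: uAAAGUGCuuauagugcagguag
miR-18a-5p: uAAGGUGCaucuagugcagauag
miR-19a-3p: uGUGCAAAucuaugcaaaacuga
miR-19b-3p: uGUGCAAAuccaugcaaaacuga
miR-92a-3p: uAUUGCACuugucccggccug

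The 3′UTRs of GENCODE M21 were searched for the 7-base complement of each seed, on the transcript strand. Hif1a and Epas1 each held 1 match to the shared miR-17/miR-20a seed and 1 to that of miR-18a. Egln3 held 1 match to miR-17/miR-20a and 1 to miR-92a, Vegfa held 1 to miR-17/miR-20a, Egln1 held 2 to miR-19, and Bnip3 held 1 to miR-18a and 1 to miR-19. Arnt held none of the 4 motifs. Of 2838 mouse 3′UTRs within 20% of the length of the Hif1a 3′UTR, 15.4% held at least 1 GCACTTT and 8.74% at least 1 GCACCTT, and of 2691 like the Epas1 3′UTR, 19% and 13.1% did. The matches in both alpha subunit genes, with the capitals marking the seed complement, are given because Hif1a differed between KO and WT cells below and Epas1 differed as well. The miR-17/miR-20a match of Egln3, a prolyl hydroxylase gene, is given as a further example, and the remaining matches are not shown. A match in these letters is a description of the sequence and does not show a functional site.
Hif1a, miR-17/20a motif, chr12:73946663-73946692, plus strand: gatgtttggttttatGCACTTTgtcgctat
Hif1a, miR-18a motif, chr12:73945992-73946021, plus strand: agtgtcatttaaaatGCACCTTtttattta
Epas1, miR-17/20a motif, chr17:86832861-86832890, plus strand: aatcgtgttccaagaGCACTTTgtaactca
Epas1, miR-18a motif, chr17:86832892-86832921, plus strand: tgagggggaggggaaGCACCTTttgggttt
Egln3, miR-17/20a motif, chr12:54180318-54180347, minus strand: gactgcttcttattcGCACTTTatgtatgc

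Bnip3 and Egln1 are direct HIF targets in the literature, and their promoters are shown as examples, from 250 bases before to 50 after the RefSeq start site. Both genes rose with stimulation, and so did Hif1a, Egln3 and Vegfa. A link between the number of cores and the rise was not tested. Capitals mark the core of the hypoxia response element, ACGTG or GCGTG on either strand, so that CACGTG counts once on each strand and matches may overlap. The Bnip3 window held 5 cores, a number reached by 1.66% of the 32851 promoters in the table, and the Egln1 window held 2, reached by 20.6%. Hif1a held 3 (8.93% of promoters reach 3), Arnt and Egln3 held 1 each (43.8% reach 1), and Vegfa held none at its first annotated start and 2 at the second. A promoter entry was used for 6 of the 7 genes.
Bnip3, chr7:138909457-138909756, minus strand, GRCm38.p6: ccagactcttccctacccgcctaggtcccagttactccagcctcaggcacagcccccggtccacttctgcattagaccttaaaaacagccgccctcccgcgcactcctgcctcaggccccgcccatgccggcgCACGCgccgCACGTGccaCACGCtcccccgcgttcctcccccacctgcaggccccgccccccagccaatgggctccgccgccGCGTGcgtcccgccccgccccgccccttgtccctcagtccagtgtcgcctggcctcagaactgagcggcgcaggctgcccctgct
Egln1, chr8:124949205-124949504, minus strand, GRCm38.p6: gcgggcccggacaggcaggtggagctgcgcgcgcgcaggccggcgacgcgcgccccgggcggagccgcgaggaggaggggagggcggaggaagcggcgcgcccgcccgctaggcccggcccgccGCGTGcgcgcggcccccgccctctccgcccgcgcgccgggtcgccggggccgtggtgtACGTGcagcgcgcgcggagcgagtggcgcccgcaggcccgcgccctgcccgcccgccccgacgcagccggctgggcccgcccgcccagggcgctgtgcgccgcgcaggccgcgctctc

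Exonic read totals were 19.2 to 20.81 M reads per library, and intronic totals were 2.739 to 9.106 M reads, with the highest in naive cells. The precursor of miR-17 in the stimulated libraries held 2 to 19 reads per library in TG cells, 0 to 2 in KO cells and 0 to 9 in WT cells, and in naive libraries 69 to 198 in TG, 0 to 3 in KO and 2 to 5 in WT. The precursor of miR-20a summed over stimulated libraries to 151 reads in TG, 2 in KO and 83 in WT, and that of miR-18a to 191, 2 and 61. Per stimulated library miR-20a held 4 to 17 reads in TG, 0 to 2 in KO and 2 to 10 in WT. For miR-18a these were 4 to 27, 0 to 1 and 0 to 9. The ranges of stimulated TG and WT libraries thus overlapped for miR-17, miR-20a and miR-18a, and those of KO and WT met or overlapped. The precursor of miR-19a summed to 79 reads in TG, 0 in KO and 72 in WT, with 1 to 15 reads per stimulated TG library and 1 to 13 per WT library. It thus separated stimulated KO from WT libraries and, like the others, did not separate stimulated TG from WT. Markers of CD4 T cells were present in every group, with a summed level of 4130 to 5540 CPM (reads scaled to the same library total) in naive and 1730 to 3100 CPM in stimulated libraries. CD8 markers summed to 29.2 to 67.1 CPM in naive and 6.51 to 26.1 CPM in stimulated libraries.

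Epas1, which encodes HIF-2α, was moderately expressed in naive cells, nearly absent in WT and KO cells after stimulation, and high again in TG cells at 48 h. In TG cells at 48 h it stood at 29.8, 53.0, 15.9 and 21.8 CPM under the very weak stimulus, against 1.66, 4.68, 0.978 and 1.49 CPM in WT cells. Under the weak stimulus at 48 h the TG libraries held 31.2, 52.6, 14.0 and 35.6 CPM, against 1.74, 5.77, 0.900 and 3.36 CPM in WT. Every TG library at 48 h exceeded every WT library, and the log2 fold changes were 3.77 and 3.50. At 24 h TG cells held 1.60, 2.53, 1.36 and 1.62 CPM against 0.635, 0.862, 0.956 and 1.07 CPM in WT under the very weak stimulus, a log2 difference of 1.01, and 1.91, 4.64, 0.892 and 1.60 CPM against 0.369, 0.884, 0.675 and 0.516 CPM under the weak one, a log2 difference of 1.88. The groups did not overlap in any of the 4 states, and the difference at 24 h was between low levels of 17 to 92 reads per TG library and 7 to 21 reads per WT library.

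Ordered by mean CPM, Epas1 was highest in TG cells at 48 h under the weak stimulus (33.3 ± 15.8, SD, n = 4), followed by naive KO (31.9 ± 3.65, n = 3), TG at 48 h under the very weak stimulus (30.2 ± 16.3, n = 4), naive WT (22.8 ± 0.459, n = 3) and naive TG (14.7 ± 1.94, n = 4). The remaining 10 groups lay between 0.562 and 2.94 CPM. Of the 14 pairs of neighbours in that order, 12 overlapped between their libraries. The breaks were between naive WT and naive TG and between naive TG and WT at 48 h under the weak stimulus.

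**Figure D1:**
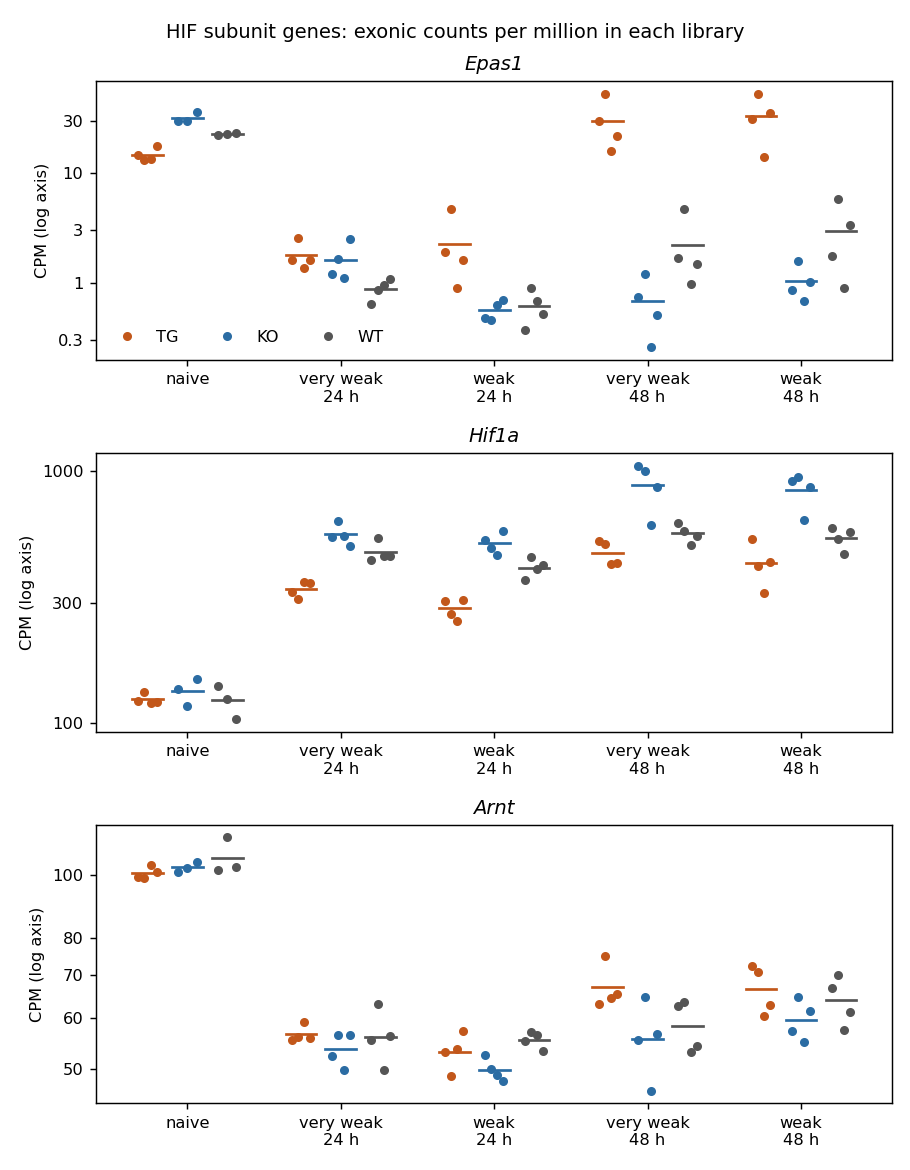
Exonic CPM (log axis) of Epas1, Hif1a and Arnt in each library, by state, with TG, KO and WT side by side; points are libraries and short bars are group means. Epas1 in TG cells returned to 30.2 and 33.3 CPM on average at 48 h while WT and KO cells stayed at or below 5.77 CPM, and Hif1a in KO cells was 883 and 842 CPM at 48 h, above the WT means of 565 and 544 CPM.

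Endothelial cells are a well known site of Epas1 expression, and some of their markers were detected. The 9 endothelial markers summed to 10.4 to 15.2 CPM in TG libraries at 48 h and 8.29 to 10.2 CPM in WT libraries at 48 h, most of it from Egfl7, at 12.5 CPM in TG and 8.37 CPM in WT under the weak stimulus. At 48 h 4 and 2 of the 9 were at 0 in every TG library under the very weak and weak stimulus, Emcn and Cldn5 among them. In WT cells 5 and 4 were. The 9 myeloid markers summed to 2.88 to 4.76 CPM in those TG libraries and 3.77 to 6.23 CPM in the WT libraries. Their part in the difference of Epas1 was not tested.

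Hif1a ran the other way between TG and WT cells, with smaller differences. Under the weak stimulus at 24 h it stood at 306, 271, 254 and 308 CPM in TG cells, against 368, 455, 407 and 422 CPM in WT cells, and under the very weak stimulus at 330, 311, 362 and 358 CPM in TG against 442, 543, 462 and 461 CPM in WT. TG libraries were below all WT libraries in both 24 h states, with log2 fold changes of -0.54 and -0.49. At 48 h the log2 fold changes were -0.25 (very weak) and -0.34 (weak), and the libraries overlapped. The sensor and target genes differed in the 24 h TG cells as well. Vegfa was higher in TG cells by 0.72 and 0.92 on the log2 scale in the very weak and weak 24 h states, with no overlap, while at 48 h the values were 0.06 and 0.04. Egln3 was 50.0 ± 4.65 CPM in TG and 33.0 ± 3.31 CPM in WT cells in the very weak 24 h state (SD, n = 4 each). Bnip3 ran in the opposite direction, at 9.56 ± 0.751 CPM in TG and 14.7 ± 5.67 CPM in WT in that state.

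Among the 15 groups, Hif1a was lowest in naive cells and highest in KO cells at 48 h. Its highest group means were those of KO cells at 48 h, 883 ± 199 CPM under the very weak and 842 ± 138 CPM under the weak stimulus (SD, n = 4 each), and its lowest those of the naive groups, 124 ± 6.05 CPM in TG (n = 4), 134 ± 16.4 CPM in KO and 123 ± 18.4 CPM in WT (n = 3 each). Of the 14 pairs of neighbours in the order, 10 overlapped between their libraries.

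Counted over the 7 genes, 3 were higher without overlap in TG cells in the very weak 24 h state (Epas1, Egln3 and Vegfa) and 2 were lower (Hif1a and Bnip3), while 6.99% and 7.15% of all 13709 genes tested lay apart in those directions. In the weak 24 h state 2 were higher (Epas1 and Vegfa; background 6.56%) and 1 lower (Hif1a; 7.37%). At 48 h only Epas1 of the 7 lay apart, with backgrounds of 8.45% under the very weak and 6.03% under the weak stimulus. As this contrast chose the set, nothing is read from these counts. Arnt, the shared partner subunit, moved by -0.06 to 0.20 on the log2 scale across the 4 states, and Egln1 by -0.14 to 0.01.

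The comparison of KO with WT cells was not the contrast on which the set was selected. It asks how these genes differ in cells that carry Cre and lack the cluster. The genes were chosen with earlier results of these data known, so the comparison is not independent of the choice. It shares its WT libraries with the TG comparison. At 48 h Hif1a was higher in KO cells in both stimulus strengths and Epas1 was lower, and neither passed the test at 24 h or in naive cells in the fit of all libraries. In a fit of only the compared groups with the replicate block, chosen after seeing the data, Hif1a was called in the very weak 24 h state (0.24, SE 0.0436, adjusted p = 0.0095, with 15.4% of genes called) and not in the very weak 48 h state (0.62, adjusted p = 0.0543, with 1.37% of genes called). Hif1a stood at 1053, 1002, 608 and 867 CPM in KO cells in the very weak 48 h state, against 621, 579, 511 and 550 CPM in WT cells. Under the weak stimulus it was 912, 949, 641 and 866 CPM in KO and 593, 539, 467 and 576 CPM in WT. All KO libraries exceeded all WT libraries under the weak stimulus, and KO replicate 3 lay within the WT range under the very weak one. The log2 fold changes were 0.64 (SE 0.128, adjusted p = 0.00114) and 0.63 (SE 0.128, adjusted p = 0.00139) by edgeR's quasi-likelihood test with Benjamini-Hochberg adjustment over 13709 genes. At 24 h they were 0.23 (adjusted p = 0.518) and 0.33 (adjusted p = 0.239), with no overlap in the weak state (535, 494, 464 and 580 CPM in KO, against 368, 455, 407 and 422 CPM in WT). In naive cells the log2 fold change was 0.13 (adjusted p = 0.996).

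When the counts were summed over the 4 stimulated states for each replicate number, Hif1a was 760, 770, 572 and 710 CPM in KO and 507, 527, 465 and 504 CPM in WT, with no overlap. The log2 fold change of these sums was 0.49 (SE 0.0928, edgeR adjusted p = 0.0111). The call held in 13 of 15 alternatives; with only replicates 3 and 4 the adjusted p was 0.126, and with only replicates 1 and 2 it was 0.0721. At 48 h the calls in each state did not hold with only replicates 3 and 4 (adjusted p = 0.22 and 0.138) or when the fit held only the compared groups (adjusted p = 0.18 and 0.0712), with log2 fold changes of 0.46 to 0.65 throughout.

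Epas1 in KO cells at 48 h stood at 0.731, 1.20, 0.257 and 0.506 CPM under the very weak stimulus, against 1.66, 4.68, 0.978 and 1.49 CPM in WT cells. Under the weak stimulus it was 0.847, 1.56, 0.679 and 1.02 CPM in KO, against 1.74, 5.77, 0.900 and 3.36 CPM in WT. These are low levels, 5 to 31 reads per KO library and 18 to 113 per WT library, and the groups overlapped in both states. The log2 fold changes were -1.70 (SE 0.513, edgeR adjusted p = 0.0423) and -1.51 (SE 0.474, edgeR adjusted p = 0.0496). Without WT replicate 2 they were -1.02 (adjusted p = 0.365) and -0.96 (adjusted p = 0.333), so the calls rest on that replicate in both states, and leaving out other single libraries of KO or WT cells also took the adjusted p to between 0.0815 and 0.127 in 7 of the remaining cases. Epas1 was higher in KO than in WT without overlap in naive cells (29.9, 29.7 and 36.1 against 22.4, 22.7 and 23.3 CPM) and in the very weak 24 h state (1.21, 1.65, 1.10 and 2.51 against 0.635, 0.862, 0.956 and 1.07 CPM), while the test gave 0.49 (adjusted p = 0.996) and 0.87 (adjusted p = 0.558).

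Of 35 tests of the 7 genes over the 5 states 4 were called, 2 of Hif1a and 2 of Epas1 (9 at an unadjusted p under 0.05, 4 by DESeq2), against 4.63% of all genes called in the very weak and 5.04% in the weak 48 h state. No member was called in naive cells (background 0.0365%), the very weak 24 h (1.06%) or the weak 24 h state (1.4%). Of the summed counts 1 member was called, where 5.93% of genes were. Egln3, which encodes the oxygen sensor PHD3, was lower on average in KO cells in each stimulated state, with log2 fold changes of -1.06, -0.85, -0.87 and -0.83, and did not pass the test (adjusted p = 0.265, 0.363, 0.213 and 0.223). Without KO replicate 2 the values at 48 h were -1.40 (adjusted p = 0.0383) and -1.39 (adjusted p = 0.0386), past the threshold. Its libraries in the very weak 24 h state were 23.7, 22.0, 9.88 and 7.86 CPM in KO and 33.7, 33.8, 28.3 and 36.1 CPM in WT, with no overlap. Members that lay apart were Hif1a above WT in the weak 24 h (4.23% of genes) and weak 48 h (4.84%) states, Epas1 above WT in naive cells (4.49%) and very weak 24 h (4.44%), Egln3 below WT in very weak 24 h (3.76%) and Arnt below WT in weak 24 h (3.91%).

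Libraries with the same replicate number deviated together between KO and WT cells in each stimulated state, so a fit of all libraries with the number as a block was also made. With the block, Egln3 was lower in KO cells by the same test in the very weak 24 h (log2 -1.14, adjusted p = 0.0277), very weak 48 h (-0.91, adjusted p = 0.0353) and weak 48 h states (-0.88, adjusted p = 0.0404), and in the summed counts (-0.92, SE 0.16, adjusted p = 0.00445). In the weak 24 h state it was not called (-0.92, adjusted p = 0.0788). Hif1a stayed called with the block at 48 h (very weak 0.63, adjusted p = 0.00013, and weak 0.625, adjusted p = 0.000137). So did Epas1 (-1.655, adjusted p = 0.00384, and -1.426, adjusted p = 0.00639). Hif1a was called in the summed counts too (0.481, SE 0.0537, adjusted p = 0.000557). Epas1 in the summed counts was also called with the block (-0.68, SE 0.188, adjusted p = 0.0316), against -0.77 (adjusted p = 0.323) without it. Of 15 alternatives the block was the 1 past the threshold, and without the block and WT replicate 2 the value was -0.30 (adjusted p = 0.729). With the block 350, 436, 1145 and 1193 genes of the whole table were called in the very weak 24 h, weak 24 h, very weak 48 h and weak 48 h states, against 145, 192, 635 and 691 without it, and 2630 against 805 in the summed counts.

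**Figure D2:**
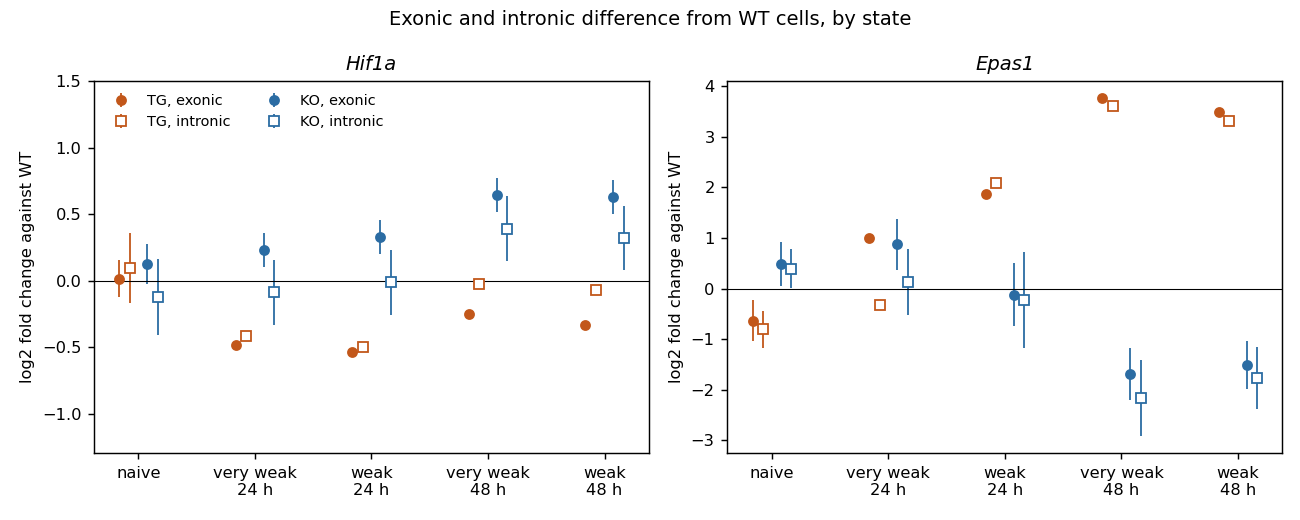
Log2 fold change of Hif1a and Epas1 against WT cells in the naive and 4 stimulated states, for TG and KO cells; filled circles are exonic and open squares intronic counts, and bars are standard errors (not computed for TG stimulated cells). Hif1a lay above 0 in KO and below 0 in TG in the exonic counts of stimulated cells, and Epas1 reached 3.77 and 3.50 in TG at 48 h.

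The other genes of the pathway were tested between KO and WT cells as 3 lists. Over the 5 states, edgeR called 0 of 60 tests of the 12 genes of HIF regulation (7 at an unadjusted p under 0.05, 0 by DESeq2) and 0 of 115 tests of the 23 HIF targets in metabolism (10 at an unadjusted p under 0.05, 0 by DESeq2). Of 120 tests of other HIF targets 3 were called (18 at an unadjusted p under 0.05, 3 by DESeq2). Of all 68545 gene tests over the 5 states edgeR called 2.43%, and 9025 had an unadjusted p under 0.05. With the replicate block 0 of the tests in regulation, 5 in metabolism and 9 of other targets were called, where 4.58% of all gene tests were. In the summed counts the block called 3 of 12 genes of regulation, 7 of 23 in metabolism and 7 of 25 other targets, where it called 19.4% of all genes. Without the block 0, 0 and 2 were called, where 5.93% of all genes were. Of the other HIF targets, Stc2, a secreted stanniocalcin, was lower in KO cells at 48 h (log2 -1.15 under the very weak stimulus, adjusted p = 0.000691, and -1.14 under the weak one, adjusted p = 0.00066), and Fam162a, a mitochondrial protein, was higher in the weak 24 h state (0.60, adjusted p = 0.0239). In the summed counts Stc2 changed by -1.10 (adjusted p = 0.00675) and Fam162a by 0.39 (adjusted p = 0.0272). The median log2 fold change at 48 h under the weak stimulus was -0.21 for metabolism, -0.16 for other targets and -0.08 for regulation, against 0 for all genes.

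Naive TG cells showed no call among the 7 genes against naive WT cells, where 7.83% of all genes were called (edgeR; 1 member had an unadjusted p under 0.05, and DESeq2 called 0). The set was not selected on this difference. The naive TG libraries are however the baseline of the TG response described without a test, so the comparison is not independent of the choice. With only the naive TG and WT libraries in the fit, at nearly the same fold changes, Epas1 (adjusted p = 0.00811), Egln3 (0.0235) and Vegfa (0.0367) were called, where 9.17% of genes were. Epas1 lay below WT without overlap (14.6, 13.2, 13.6 and 17.5 CPM in TG, against 22.4, 22.7 and 23.3 CPM in WT; log2 fold change -0.63, adjusted p = 0.373), and 11.6% of all genes did so. Egln1, Egln3 and Vegfa lay above it (11.1%), with Vegfa at 6.78, 5.55, 8.33 and 4.74 CPM in TG, against 4.08, 3.05 and 2.46 CPM in WT (log2 0.99, adjusted p = 0.175) and Egln3 at 5.83 ± 0.933 CPM (n = 4) against 2.97 ± 0.652 CPM (n = 3). By mean, Epas1 was thus lowest in TG and highest in KO among naive cells and highest in TG and lowest in KO at 48 h. The other genes called in this comparison were Vhl (0.59, adjusted p = 0.000282) and Arnt2 (2.50, adjusted p = 0.00568) of 12 in regulation, Car12 (-1.23, adjusted p = 0.000232) and Pfkfb4 (-0.75, adjusted p = 0.00139) of 23 in metabolism, and Fam162a (-0.92, adjusted p = 0.000267) and Vegfb (0.58, adjusted p = 0.0357) of 24 other targets.

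Every member differed between stimulated and naive WT cells. No group was cultured without the antibodies, so the effects of the stimulus, of culture and of IL-2 cannot be told apart. Hif1a was 477 ± 44.6 CPM at 24 h under the very weak stimulus and 544 ± 55.9 CPM at 48 h under the weak one (SD, n = 4 each), against 123 ± 18.4 CPM in naive WT cells (n = 3). Its log2 fold changes over the 4 states were 1.96, 1.75, 2.20 and 2.15. Epas1 fell instead, with log2 fold changes of -4.68 and -5.21 at 24 h and -3.37 and -2.95 at 48 h (very weak and weak stimulus), reaching 0.881 and 0.611 CPM at 24 h, against 22.8 ± 0.459 CPM in naive WT cells. The myeloid markers went down with it, to 3.77 to 6.54 CPM in stimulated WT libraries, against 136 to 320 CPM in naive WT libraries. B cell markers were 13.1 to 48.5 against 163 to 289 CPM and erythroid markers 0.0509 to 3.35 against 44.7 to 159 CPM. Of the 5 endothelial markers tested of 9, Egfl7 rose in each state and 3, 4, 3 and 3 fell, Cdh5 and Vwf among them, with medians of -3.41, -3.88, -2.24 and -2.25. The part of these cells in the fall of Epas1 was not tested. Arnt, the shared partner, fell as well, with log2 fold changes of -0.92, -0.94, -0.87 and -0.74.

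The sensors and targets rose with stimulation. Egln1, the main prolyl hydroxylase, changed by 0.52, 0.51, 1.48 and 1.40, and Egln3 by 3.47, 3.53, 6.43 and 6.33. Bnip3 changed by 2.14, 2.12, 4.89 and 4.96 and Vegfa by 1.82, 1.85, 4.11 and 4.39. Egln3 reached 257 ± 126 and 240 ± 131 CPM at 48 h (very weak and weak stimulus), against 2.97 ± 0.652 CPM in naive WT cells. Over WT and KO cells 55 of 56 member tests were called, with Egln1 in KO cells in the very weak 24 h state the exception (0.34, adjusted p = 0.0647). Of all genes 76.3%, 77.4%, 77.7% and 78.2% were called in the 4 states of WT cells and 74.3%, 76.4%, 74.8% and 75.1% in those of KO cells, so most genes changed and the count of members says little. Epas1 also fell in KO cells, with log2 fold changes of -4.30, -5.81, -5.55 and -4.95, and the difference between the KO and WT responses to stimulation was not called for any member (0 of 7; background 0.168%; Epas1 -1.10, SE 0.505, adjusted p = 0.449).

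TG cells, given here as a description, had Hif1a log2 fold changes against naive TG cells of 1.46, 1.20, 1.94 and 1.79. Those of Epas1 were -3.04 and -2.69 at 24 h and 1.04 and 1.18 at 48 h. Epas1 was thus low at 24 h in all 3 genotypes, and by mean only the TG groups were above their own naive level at 48 h. The libraries of both 48 h TG groups overlapped those of naive TG. Replicate 3 held 15.9 CPM under the very weak and 14.0 CPM under the weak stimulus, against 13.2 to 17.5 CPM in naive TG. Compared per kilobase of exon, Hif1a was at 99.1 CPM per kilobase in WT cells at 48 h under the weak stimulus and at 22.4 in naive WT cells. On that scale and in that order Epas1 was at 0.55 and 4.26, Arnt at 8.97 and 14.9, Egln1 at 57.8 and 21.9, Egln3 at 89.6 and 1.11, Vegfa at 15.3 and 0.732 and Bnip3 at 59.1 and 1.90. Per length, Hif1a, Egln3, Bnip3 and Egln1 had the highest levels at 48 h, and Hif1a, Egln1 and Arnt in naive cells.

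**Figure D3:**
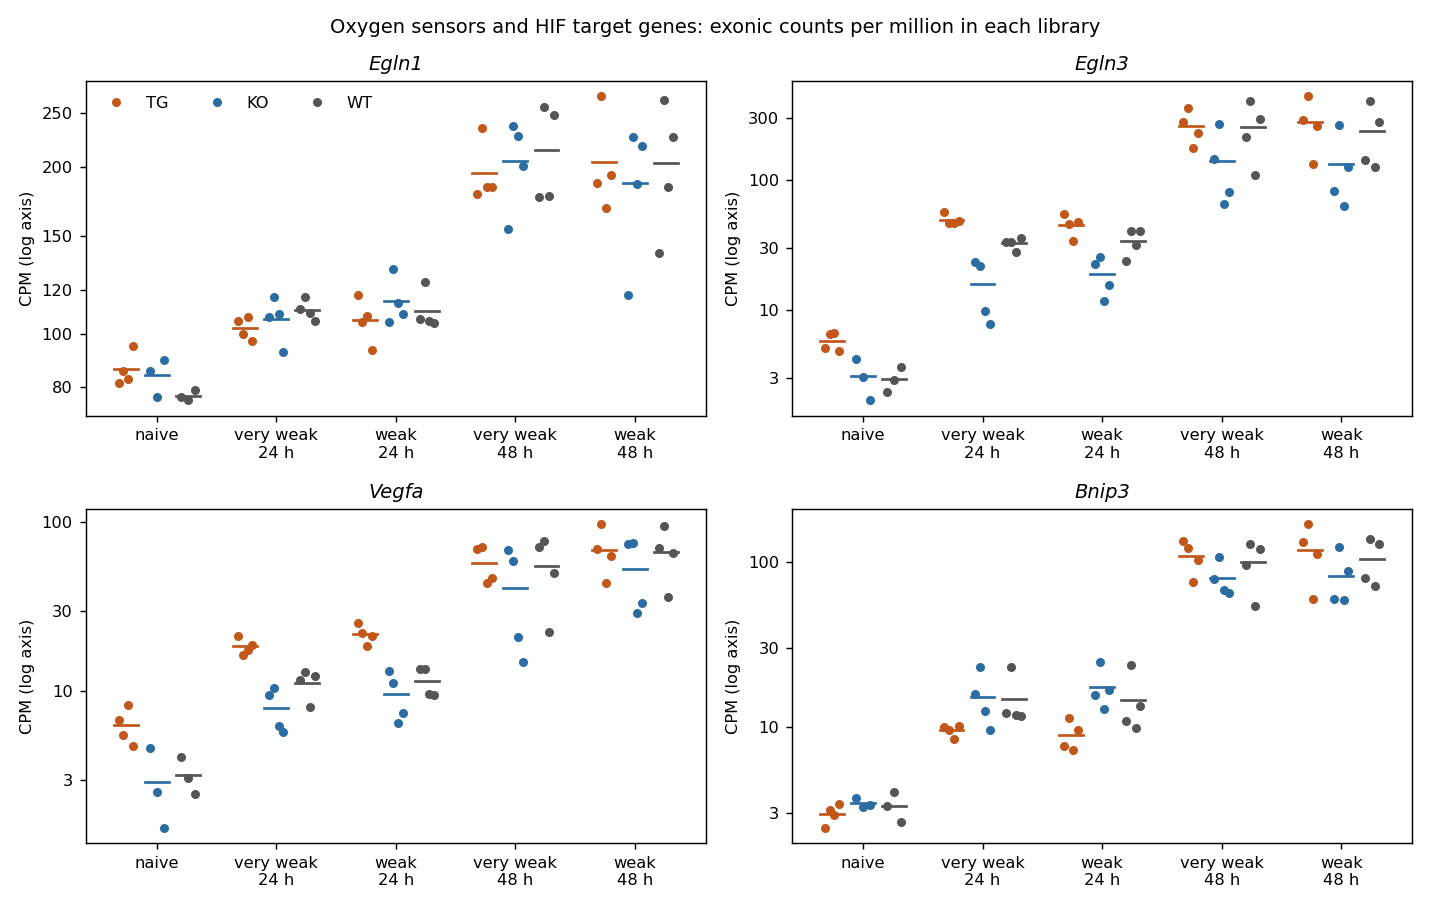
Exonic CPM (log axis) of Egln1, Egln3, Vegfa and Bnip3 in each library, by state, with TG, KO and WT side by side; points are libraries and short bars group means. All 4 genes were lowest in naive cells and highest at 48 h, and Vegfa at 24 h lay higher in TG (18.6 and 21.9 CPM) than in WT (11.3 and 11.6 CPM).

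Between 24 and 48 h the sensors and targets went on rising in every genotype. In TG cells Egln3 rose by 2.40 and 2.63 on the log2 scale (very weak and weak stimulus), Bnip3 by 3.50 and 3.72, Vegfa by 1.64 and 1.65 and Egln1 by 0.93 and 0.95. In KO cells the corresponding changes were 3.16 and 2.82 for Egln3, 2.38 and 2.23 for Bnip3, 2.36 and 2.46 for Vegfa and 0.95 and 0.71 for Egln1. In WT cells they were 2.97 and 2.80 for Egln3, 2.75 and 2.84 for Bnip3, 2.30 and 2.53 for Vegfa and 0.96 and 0.89 for Egln1. Each of these was called by edgeR, and Hif1a rose as well in TG (0.48 and 0.60) and KO cells (0.65 and 0.70), and in WT cells under the weak stimulus (0.40, adjusted p = 0.011) but not under the very weak one (0.25, adjusted p = 0.135). Epas1 rose in WT cells by 1.31 (SE 0.494, adjusted p = 0.0347) and 2.25 (SE 0.512, adjusted p = 0.000397). Without WT replicate 2 at 48 h the very weak value was 0.64 (adjusted p = 0.381), and with only replicates 3 and 4 it was 0.28 (adjusted p = 0.819).

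In KO cells Epas1 was not called in either state, with values of -1.26 (SE 0.527, adjusted p = 0.0582) and 0.86 (SE 0.573, adjusted p = 0.224). With the replicate block in the fit of all libraries, the very weak value was -1.31 (SE 0.40, adjusted p = 0.0076). The KO numbers deviated together, but that block also covers naive libraries and WT cells over time, whose numbers were not taken as paired. With the block and only the compared KO groups, a fit chosen after seeing the data, it was -1.29 (SE 0.394, adjusted p = 0.0457). In TG cells, without a test, it was higher at 48 than at 24 h by 4.08 and 3.87. Over the 7 genes, 5 were called in KO cells under the very weak stimulus (34.7% of all genes) and 6 under the weak one (45.6%), and in WT cells 5 (34.4%) and 7 (41.4%). In TG cells 33.9% and 39.7% of all genes were called.

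The difference between the KO and WT changes over time was tested directly. For Epas1 it was -1.98 (SE 0.536, adjusted p = 0.0601) averaged over the stimulus strengths, which did not pass the threshold with edgeR, while it passed in DESeq2 (-1.99, adjusted p = 0.0114) and with the replicate block (-1.92, SE 0.408, adjusted p = 0.00564). Over 37 alternatives its adjusted p ran from 0.00564 to 0.357. For Hif1a the difference was 0.36 (SE 0.128, adjusted p = 0.224), and without KO replicate 3 in the very weak 48 h state it was 0.43 (adjusted p = 0.0384). None of the 7 genes was called (background 0.781%), and over this difference and that of the responses to stimulation 4 of 14 tests had an unadjusted p under 0.05 and DESeq2 called 1.

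No difference by dose of anti-CD3 was called in the fit of all libraries. No member and no other gene (0%) was called in the 6 comparisons of the weak with the very weak stimulus by edgeR, and DESeq2 called 0 genes. Of the 42 member tests 1 had an unadjusted p under 0.05, that of Epas1 in KO cells at 24 h (log2 -1.52, adjusted p = 0.419), with 0.476, 0.452, 0.622 and 0.697 CPM under the weak and 1.21, 1.65, 1.10 and 2.51 CPM under the very weak stimulus. With the replicate block and only the compared groups, a fit chosen after seeing the data whose pairs deviated together, 4 member tests were called. They were Hif1a at 24 h in TG (-0.27, adjusted p = 0.0239, where 4.53% of genes were called) and WT cells (-0.22, adjusted p = 0.00972; 3.55%), Epas1 at 24 h in KO cells (-1.51, adjusted p = 0.00799; 10.8%) and Vegfa at 48 h in WT cells (0.32, adjusted p = 0.0243; 6.09%).

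Reads from introns come mostly from unspliced transcripts and give a second measure of the same genes. Epas1 in TG cells at 48 h held 38.9, 35.4, 18.3 and 16.9 intronic CPM under the very weak stimulus, against 1.69, 4.17, 0.652 and 2.78 CPM in WT cells. Under the weak stimulus it was 39.2, 34.5, 16.1 and 26.7 CPM in TG, against 2.32, 5.65, 1.83 and 1.92 CPM in WT. The TG and WT libraries did not overlap, and the intronic log2 fold changes, 3.61 and 3.32, stood close to the exonic ones, 3.77 and 3.50. At 24 h they were -0.33 and 2.08. These rest on few intronic reads, in sums over 4 libraries of 13 and 32 in TG and 17 and 8 in WT. Averaged over the stimulated states, those at 24 h included, the exonic change exceeded the intronic one by 0.35 for Epas1 and lay below it by 0.15 for Hif1a, given as a description.

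For Hif1a in KO cells the intronic change at 48 h was 0.39 (SE 0.243, adjusted p = 0.807) and 0.32 (SE 0.243, adjusted p = 0.875), against 0.64 and 0.63 in exonic counts. At 24 h it was -0.09 and -0.01, against 0.23 and 0.33. The exonic minus intronic difference, averaged over the stimulated states, was 0.31 (SE 0.14, adjusted p = 0.491). None of the 35 intronic tests of KO against WT was called by edgeR (2 at an unadjusted p under 0.05, 0 by DESeq2), where 0.00809%, 0.0647%, 0.0243%, 0.146% and 0.146% of genes were called in the naive, very weak 24 h, weak 24 h, very weak 48 h and weak 48 h states. None of the 7 exonic minus intronic tests was called by edgeR either (1 at an unadjusted p under 0.05), where 1.01% of genes were. Intronic Epas1 in KO changed by -2.17 (adjusted p = 0.382) and -1.77 (adjusted p = 0.358) at 48 h, on 0 to 5 intronic reads per KO library and 2 to 18 per WT library.

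In activated WT cells intronic Hif1a rose by 2.10, 2.07, 2.59 and 2.57 and intronic Epas1 changed by -4.20, -5.21, -3.21 and -2.83, close to the exonic changes. Egln3 and Bnip3 behaved differently. Their introns at 24 h changed by 1.17 (adjusted p = 0.101) and 1.32 (adjusted p = 0.058) for Egln3 and by 0.23 and -0.14 for Bnip3, none of them called, while their exons rose by 3.47 and 3.53 and by 2.14 and 2.12. At 48 h both were called in introns, at 3.90 and 4.21 for Egln3 and 2.89 in both states for Bnip3. The exonic minus intronic change against naive WT cells was 2.05 (SE 0.57, adjusted p = 0.0018) for Bnip3 and 2.28 (SE 0.699, adjusted p = 0.00464) for Egln3, the 2 members called of 7, where 48.3% of genes were called. That edgeR fit took the exonic and intronic counts of a library as separate samples, so its p-values ignore their pairing. Without naive WT replicate 1 the Egln3 value was 1.75 (adjusted p = 0.103), no longer called. For Vegfa it was 0.94 (adjusted p = 0.115). The share of genes called in introns was 55.3%, 60.7%, 57.2% and 58% over the 4 states.

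The 48 h libraries shared an order by replicate number. Epas1 and Egln3 were highest in replicate 2 and lowest in replicate 3 in all 6 groups, whatever the genotype and stimulus. Of all 13709 genes 31 (0.226%) did so. The ratio of the highest to the lowest library within a group was 2.30 to 6.41 for Epas1 and 2.05 to 4.17 for Egln3. For 3 of the 7 members replicate 2 was the highest in all 6 groups, against 402 of 13709 genes (2.93%), and for 3 of them replicate 3 was the lowest, against 189 genes (1.38%). Among the listed genes, 8 of 23 metabolic targets were highest in replicate 2 throughout and 2 lowest in replicate 3, for other targets 4 and 5 of 24, and for regulation 1 and 0 of 12. Hk2 (hexokinase), Ndrg1 and P4ha2 (collagen prolyl hydroxylase) showed the whole pattern. Exonic totals at 48 h were 19.28 to 19.68 M reads in replicate 2 and 19.33 to 19.78 M reads in replicate 3. Intronic totals were 2.85 to 3.7 M reads in replicate 2 and 2.74 to 3.84 M reads in replicate 3, so these depths overlapped. The labels do not say whether equal numbers share mice, plates or a day.

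**Figure D4:**
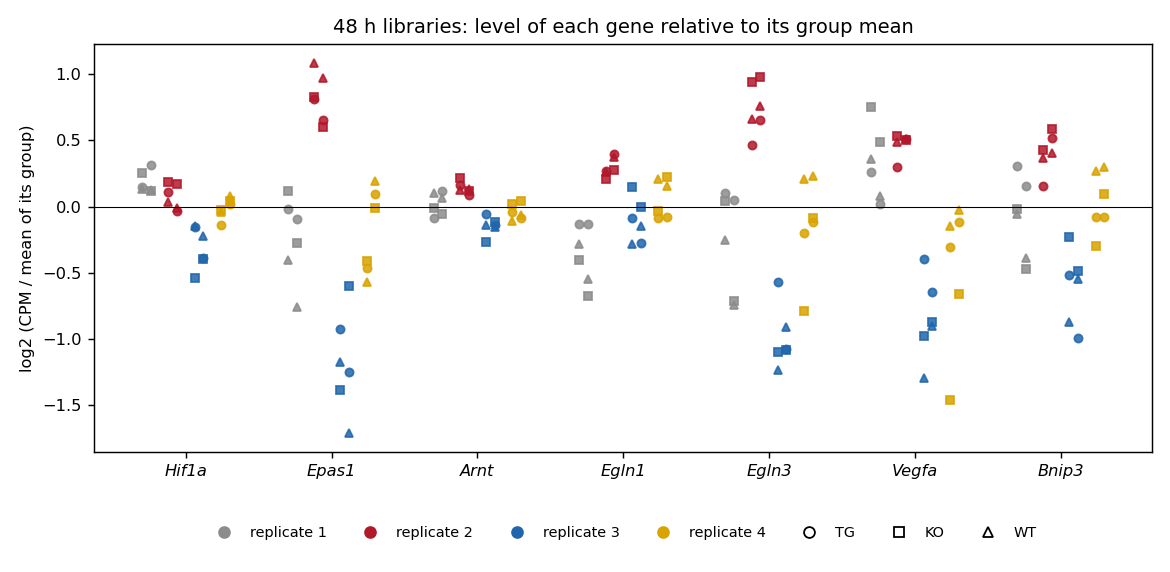
Log2 ratio of each 48 h library to its group mean for the 7 genes; colours are replicate numbers and shapes are genotypes. Replicate 2 lay above 0 for Epas1 and Egln3 in all 6 groups and replicate 3 lay below 0.

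The lists of known HIF targets give the background for the members in activated cells. In WT cells against naive WT cells, 16, 16, 20 and 20 of 23 metabolic targets rose in the very weak 24 h, weak 24 h, very weak 48 h and weak 48 h states and 2 fell in each, with median log2 fold changes of 1.51 to 2.69, against -0.09 to 0.02 for all genes. Of 24 other targets 9, 10, 19 and 18 rose and 8, 6, 2 and 2 fell, and of 12 genes of regulation 5 or 6 rose and 6 fell. Of all genes 76.3%, 77.4%, 77.7% and 78.2% were called in either direction in those states, so the counts of called list genes say little. In the very weak 24 h state Tpi1 (4.25) and Pgam1 (3.45), enzymes of glycolysis, led the metabolic list, while Cxcr4, a chemokine receptor, fell by 5.89 and Cited2, which competes with HIF for p300 binding, fell by 2.23. Between 24 and 48 h in WT cells 21 and 20 of 23 metabolic targets rose and 18 and 20 of 24 other targets did, in the very weak and weak states, where 34.4% and 41.4% of all genes were called in either direction. The medians were 0.70 and 0.73 for metabolic and 1.66 and 1.76 for other targets, against -0.003 and 0.02 for all genes. Under the weak stimulus these included Aldoc (3.82), Slc2a3, a glucose transporter (3.46), Slc16a3, a lactate exporter (2.86), Vldlr (7.09) and Stc2 (4.29), and Hif3a rose by 2.62, while Hif1an, the asparaginyl hydroxylase FIH, fell by 0.58.

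Across the 15 group means of log2 CPM, the genes most like Epas1 by Pearson correlation among 10693 candidates were Chd7 (r = 0.965), Gata3 (0.964), Lrrk1 (0.953), Mzb1 (0.941) and Calcrl (0.940). Those most like Hif1a were Taf1 (0.989), A430093F15Rik (0.988), Gas2 (0.987), Mlf1 (0.986) and Snx25 (0.985). By Spearman correlation the leading 5 were different genes for both. Among the members, Egln1 and Bnip3 (0.986) and Egln3 and Vegfa (0.985) followed each other most closely, Hif1a and Arnt ran in opposite directions (-0.838), and Hif1a and Epas1 did as well (-0.664). These values describe 15 groups that share 1 contrast of naive with stimulated cells and are given without a test.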

How the data were processed

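RNA-seq of 58 libraries was analysed from tables of raw counts per gene, 1 of exonic and 1 of intronic reads, that the authors deposited. The deposited counts came from STAR 2.5.2a alignments to mm10, with FastQC 0.11.5, R 3.5 and edgeR 3.24.3 also named, per the submitters' processing notes. No counting program, annotation or setting for strand is named in the sources used here. The library kit marks strand, per the labels. The intronic count exceeded the exonic count in 14.15% of values. Reads shared with a gene overlapping on either strand could not be separated. Of 24028 gene identifiers, 23968 were named from RefSeq, 7 from GENCODE and 53 were not named.

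Counts were fitted in R 4.3.3 with edgeR 4.0.16 (filterByExpr, TMM factors of 0.939 to 1.06, glmQLFit with 1 coefficient per group, 43 residual degrees of freedom), keeping 13709 genes in the exonic and 12366 in the intronic table. CPM are TMM-scaled. Calls are Benjamini-Hochberg adjusted p under 0.05 over all genes kept. Counts summed over the 4 stimulated states per genotype and replicate number kept 13567 genes and were tested 4 against 4. A single fit of both tables (11350 genes) tested the exonic minus intronic change. It held 1 coefficient per group and region and no term for the library, so both counts of a library entered as separate samples. DESeq2 1.42.0, limma 3.58.1, no filter, a replicate block, only the compared groups and leaving out libraries were alternatives. Tested on simulated data for KO against WT at 48 h under the weak stimulus (12887 genes, 200 changed), the fit recovered 85% of 2-fold and 98% of 4-fold changes with 9 false calls. That simulation held only the naive and weak 48 h groups of KO and WT, without shared deviations by replicate number. Changed genes were drawn above a floor on reads, from base levels shared by naive and stimulated libraries. Its recovery therefore does not apply to Epas1 at its few reads in stimulated KO and WT cells.

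Replicate numbers come from the titles. Same-numbered libraries were taken as paired where every pair's deviations from the group means correlated above 0.1, which held for KO against WT in the 4 stimulated states (lowest 0.134 to 0.299), for both KO comparisons of 48 with 24 h, for TG under the very weak stimulus and for all comparisons of dose, but not for naive cells or stimulated against naive. The members, the lists of HIF regulation, metabolic and other HIF targets, and the lists of CD4, CD8, endothelial, myeloid, B cell and erythroid markers were chosen with earlier results of these data known. Named genes are the 7 members, the 5 most like Epas1 and Hif1a among genes reaching 5 CPM in 1 group, up to 4 called genes per list and comparison with the smallest adjusted p, and the cluster's precursors.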

Additional observations from a re-analysis of the deposited data

Results flagged for a closer look

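In 182 groups of 4 libraries (7 genes, exonic and intronic), the highest or lowest library lay far from the rest of its group in 15, where chance flags about 1 in 20 groups. Exonic values apart from their group were Arnt in TG very weak 24 h replicate 3 (59.2 CPM, the others 55.5 to 56), Bnip3 in WT very weak 24 h replicate 2 (23.2, the others 11.6 to 12.1), Egln1 in TG very weak 48 h replicate 2 (235, the others 178 to 184) and in WT weak 24 h replicate 2 (124, the others 105 to 106), and Hif1a in naive TG replicate 2 (133, the others 120 to 122). Intronic values that lay apart were high for Arnt in KO weak 24 h replicate 1 (103, the others 78.2 to 81.1), Bnip3 in KO weak 24 h replicate 4 (5.65, the others 2.11 to 2.62), Egln3 in KO weak 24 h replicate 2 (10.8, the others 3.85 to 4.54), Epas1 in TG weak 24 h replicate 1 (4.93, the others 1.31 to 1.49), Epas1 in WT very weak 24 h replicate 2 (1.77, the others 0.817 to 0.859) and Epas1 in WT weak 48 h replicate 2 (5.65, the others 1.83 to 2.32). They were low for Hif1a in KO weak 24 h replicate 3 (183, the others 362 to 398), Hif1a in TG very weak 24 h replicate 3 (218, the others 266 to 272), Vegfa in TG weak 24 h replicate 3 (13.9, the others 20.3 to 21.1) and Vegfa in WT very weak 48 h replicate 3 (20.5, the others 44.4 to 48.1).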

How the results depend on the processing

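No direction of a called member reversed under any alternative. The share of all gene tests called under the same setting stands in parentheses. Between KO and WT in each state 4 member tests were called as reported (2.43%), 7 with the replicate block (4.58%), 2 with only replicates 1 and 2 (1.17%), 0 with only replicates 3 and 4 (0.953%), 0 with only the compared groups in the fit (0.584%) and 9 with those groups and the replicate block (6.22%), an alternative chosen after seeing the data here and below. In the summed counts they were 1 as reported (5.93%), 3 with the replicate block (19.4%), 0 with replicates 1 and 2 (0.124%), 0 with replicates 3 and 4 (2.18%) and 2 with the block added to the compared groups (14.6%). Naive TG against WT gave 0 as reported (7.83%), 1 with the block (11.2%), 3 with only the compared groups (9.17%) and 3 with the block as well (15.5%). The dose comparison gave 0 (0%), and 4 with the compared groups and the block (4.27%). The KO minus WT difference gave 0 (0.474%), 1 with DESeq2 (0.987%) and 1 with the block (1.07%). Intronic summed counts gave 0 as reported (0.11%) and 1 with the compared groups and the block (2.33%). Exonic minus intronic changes, of KO against WT and of stimulated against naive WT, gave 2 calls as reported and 3 with the block. They gave 3 with limma on differences within each library, which keeps the pairing. The share of all genes is not given for these alternatives. Leaving out single libraries gave 2 to 5 calls of KO against WT, 0 to 1 of the difference, 54 to 56 of stimulated against naive, 34 to 36 of 48 against 24 h without Epas1 in TG cells, 68 to 72 intronic and 1 to 2 exonic minus intronic calls, where Egln3 was lost without naive WT replicate 1. It gave 0 to 0 in the naive TG, dose and intronic summed comparisons and 1 to 1 in the exonic summed one. The replicate numbers pair no naive libraries, so the blocked naive values only share a number. The cause of these changes was not tested. Depth limits Epas1 in stimulated KO and WT cells, at 5 to 113 exonic reads per library.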
